A study of Mus musculus with 6 samples.

Results

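The genes described here are 36 genes of endoplasmic reticulum stress and secretion, listed by symbol and found in the deposited expression table through their Ensembl identifiers (GRCm38, GENCODE M21). All 36 were among its 28914 genes. In 34 of them the level reached at least 1 FPKM (fragments per kilobase of transcript, scaled to library size) in at least 2 libraries, and these were tested; the sensors Ern1 and Atf6 stayed under 1 FPKM in every library and are given by value. The lowest level of a tested member in any library was 1.61 FPKM, so no member passed through a single group.

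RNA sequencing was done on total CD4 T cells sorted from spleens of NOD mice, in which autoimmune diabetes arises without induction. The mice were 12 weeks old and the cells had no further stimulation of the T cell receptor. The groups were 2 libraries labelled Blimp-1 deficient (genotype Blimp1 knockout, named CKO), 2 labelled as overexpressing Blimp-1 (named BTg, or Tg in the titles) and 2 of controls (genotype WT). All 3 groups share the NOD background, the age, the organ and the sort. The labels name no Cre driver or deleted exon for the knockout and no promoter for the transgene. They also leave unsaid whether different animals gave the paired libraries, so the error here is that between libraries and may be technical. Blimp-1 is the product of Prdm1, and the comparisons ask how the secretory genes stood where it is labelled absent or raised, and how far they moved together with plasma cell transcripts.

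Proteins that enter the secretory pathway are threaded through the Sec61 channel into the endoplasmic reticulum, lose their signal peptide, and are folded there by chaperones and disulfide isomerases or sent for degradation. When unfolded protein builds up, the sensors encoded by Ern1, Eif2ak3 and Atf6 start the unfolded protein response: Ern1 splices Xbp1 mRNA into the form that makes an active transcription factor, Eif2ak3 raises translation of Atf4, and Atf6 is cut into a transcription factor. Antibody-secreting plasma cells run this machinery at a high level, with Xbp1 and Blimp-1 as known regulators, whereas resting T cells secrete little. Gene-level values cannot separate spliced from unspliced Xbp1.

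The promoters of 30 members were found in RefSeq promoter sequences (build GRCm38.p6), each running from 250 bases before the transcription start to 50 after it. The endoplasmic reticulum stress element (ERSE), through which Atf6 and Xbp1 proteins act, was searched on both strands as CCAAT and CCACG 9 bases apart. It was present in 7 of the 30 promoters (23.3%), those of Hspa5, Hsp90b1, Calr, Canx, Creld2, Dnajc3 and Pdia6, and in 0.119% of 32851 promoters of the same length. The shorter ERSE-II, ATTGG and CCACG 1 base apart, was present in Herpud1 and Dnajb11, against 0.0365% of all promoters. The Atf4 composite element, searched as TGATGNAA, was present in Asns, Herpud1 and Trib3 (10% of the members found, against 3.97% of all). The core of the unfolded protein response element, TGACGTGG, whose last 5 bases are the reverse complement of CCACG, was in 0 of the 30 and in 0.676% of all, which says only that these letters are not in these windows. No 2 matches overlapped in the promoters printed here. A match is a description of the letters and not a measured binding site. The members were listed as genes of this stress response, so their shares beside those of all promoters are a description and not a test.

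The following 6 promoters are shown as examples of each kind of match, picked with the members' levels known. Of these, 4 have an ERSE and come from members that were far higher in library CKO 1 than in CKO 2. Those of Herpud1 and Trib3 come from members that were not. Other members do not follow that division, since Sdf2l1, with no ERSE in its window, was among the highest in CKO 1 relative to CKO 2, while Dnajc3 and Canx, with one, were among the lower chaperones. Capitals mark the ERSE in Hspa5, Hsp90b1, Creld2 and Pdia6, ERSE-II and the Atf4 element in Herpud1, and the Atf4 element in Trib3.
Hspa5 (chr2:34771840-34772139, plus strand): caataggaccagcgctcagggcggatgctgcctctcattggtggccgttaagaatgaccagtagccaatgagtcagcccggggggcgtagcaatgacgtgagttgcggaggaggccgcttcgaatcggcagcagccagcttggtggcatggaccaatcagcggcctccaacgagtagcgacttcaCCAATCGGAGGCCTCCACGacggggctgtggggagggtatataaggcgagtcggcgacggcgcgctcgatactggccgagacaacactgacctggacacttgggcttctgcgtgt
Hsp90b1 (chr10:86705395-86705694, minus strand): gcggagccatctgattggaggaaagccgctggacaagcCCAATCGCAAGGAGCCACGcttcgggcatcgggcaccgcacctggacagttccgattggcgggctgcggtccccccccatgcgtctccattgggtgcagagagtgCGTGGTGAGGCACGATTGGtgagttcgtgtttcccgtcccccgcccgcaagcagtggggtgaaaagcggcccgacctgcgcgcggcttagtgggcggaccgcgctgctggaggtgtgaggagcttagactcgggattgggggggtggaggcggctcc
Creld2 (chr15:88819396-88819695, plus strand): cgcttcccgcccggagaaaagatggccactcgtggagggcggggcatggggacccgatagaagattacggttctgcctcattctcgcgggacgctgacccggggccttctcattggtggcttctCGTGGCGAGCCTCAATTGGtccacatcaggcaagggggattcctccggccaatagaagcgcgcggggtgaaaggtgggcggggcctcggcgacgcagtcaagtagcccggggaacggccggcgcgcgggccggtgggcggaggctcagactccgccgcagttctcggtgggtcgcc
Pdia6 (chr12:17266339-17266638, plus strand): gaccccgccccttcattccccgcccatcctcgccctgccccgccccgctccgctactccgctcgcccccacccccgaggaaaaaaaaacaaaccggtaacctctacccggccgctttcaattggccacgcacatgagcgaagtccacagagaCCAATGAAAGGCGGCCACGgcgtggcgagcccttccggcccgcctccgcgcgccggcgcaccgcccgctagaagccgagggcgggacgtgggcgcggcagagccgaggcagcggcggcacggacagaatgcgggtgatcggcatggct
Herpud1 (chr8:94386179-94386478, plus strand): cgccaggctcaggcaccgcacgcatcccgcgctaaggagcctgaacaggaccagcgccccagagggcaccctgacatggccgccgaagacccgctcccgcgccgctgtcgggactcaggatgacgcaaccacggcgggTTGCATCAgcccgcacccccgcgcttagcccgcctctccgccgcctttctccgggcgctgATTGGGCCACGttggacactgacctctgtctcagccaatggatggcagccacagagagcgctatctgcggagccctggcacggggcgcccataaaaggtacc
Trib3 (chr2:152344011-152344310, minus strand): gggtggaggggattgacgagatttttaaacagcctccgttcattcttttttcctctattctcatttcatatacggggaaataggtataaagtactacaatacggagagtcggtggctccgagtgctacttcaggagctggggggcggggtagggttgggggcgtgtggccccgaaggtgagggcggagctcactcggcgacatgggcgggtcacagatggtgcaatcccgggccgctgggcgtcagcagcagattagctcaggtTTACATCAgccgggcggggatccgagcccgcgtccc
The ERSE of Hspa5 begins 65 bases before the start and that of Pdia6 98 bases before it. Hsp90b1 was the only member found with 2 such elements.

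The libraries held 14958458 to 17799091 reads counted on genes. Prdm1 was at 0.849 and 0.669 FPKM in CKO, 19.6 and 30.1 FPKM in BTg, and 0.458 and 0.628 FPKM in WT, so it was not lower in the libraries labelled CKO. Its difference between CKO and WT was 0.19 ± 0.26 (SE) on the log2(FPKM + 1) scale (limma, adjusted p = 1), and between BTg and WT 4.04 ± 0.26 (adjusted p = 0.0221). Every direction given for CKO therefore rests on the label alone, and gene-level values cannot show a deletion that leaves the transcript. The T cell gene Cd3e was at 36.9 and 77.5 FPKM in CKO, 80.2 and 100.3 FPKM in BTg, and 60.1 and 78 FPKM in WT. Cd4 was at 53.8 and 93.7 FPKM in CKO, 99.4 and 103 FPKM in BTg, and 93.7 and 81.7 FPKM in WT, so markers of the sorted cell type were present in all 6 libraries. Library CKO 1 stood apart from the other 5, with the highest summed plasma cell, neutrophil, monocyte and basophil transcripts and the lowest Cd3e and Cd4. The members' values are given with and without it.

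The 36 members together held 1.24% of the counted reads in CKO 1 and 0.511% in CKO 2, 0.471 and 0.410% in BTg, and 0.452 and 0.482% in WT. Their summed level was 3334 and 1229.7 FPKM in CKO, 1118 and 933 FPKM in BTg, and 1101 and 1161 FPKM in WT. CKO 1 was alone at the top and the other 5 libraries lay close together, with CKO 2 next and BTg 2 lowest. In these bulk samples fewer cells of a type and less RNA per cell cannot be told apart. Deposited values divide by a transcript span, so short-span genes such as Hspa5 and Calr weigh more in this sum. Per kilobase of merged exon the sum was 3869 and 1517 FPKM in CKO, 1433 and 1199 FPKM in BTg, and 1407 and 1439 FPKM in WT, with the same library highest and the same lowest. On that scale Hspa5 and Calr made 21% of the sum in CKO 1 and 14.7 to 16.9% in the other 5 libraries.

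**Figure D1:**
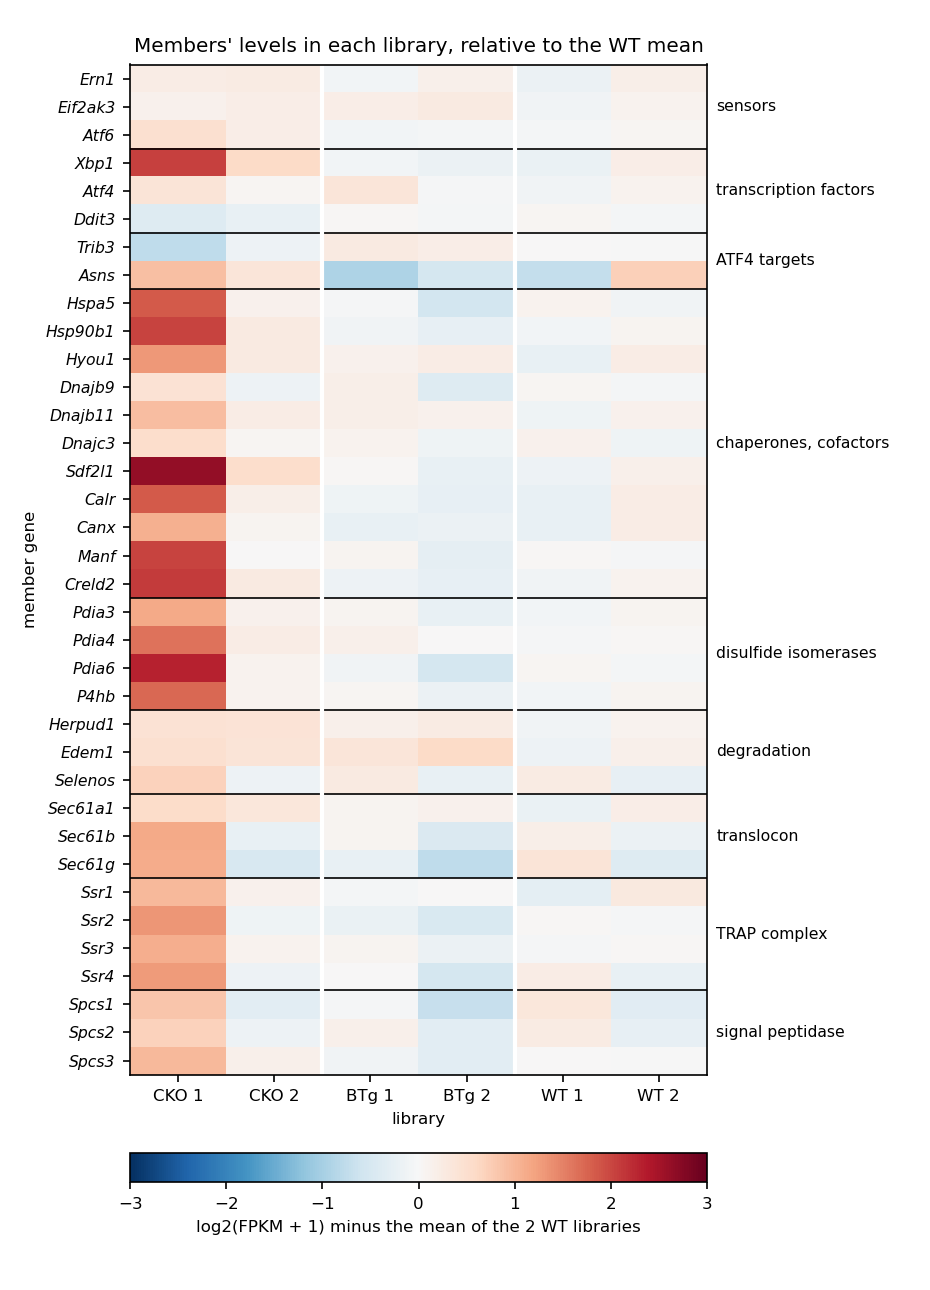
Each row is a member and each column a library; colour gives log2(FPKM + 1) minus the mean of the 2 WT libraries, with red above and blue below it. The column of CKO 1 is red for chaperones, disulfide isomerases, Xbp1 and the subunits of translocation, and blue for Trib3 and Ddit3, while CKO 2, BTg and WT are pale for most members.

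CKO 1 was the highest library for 30 of the 34 tested members, against 23% of all 10798 genes tested. The exceptions were Eif2ak3 and Edem1, highest in BTg 2, Ddit3, highest in WT 1, and Trib3, highest in BTg 1. Over the 5 libraries other than CKO 1, 31 of 34 members varied by less than 2-fold between their highest and lowest value, with Asns, Sec61g and Spcs1 above that, and the median member varied 1.47-fold. With CKO 1 included the median was 2.84-fold and 8 members stayed under 2-fold. These spreads were not counted over all genes, so they do not set the members apart.

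The 3 sensors were the lowest members in WT per kilobase of merged exon, the scale on which levels can be compared between genes. On it Eif2ak3 averaged 6.73, 7.19 and 5.76 FPKM in CKO, BTg and WT, Ern1 7.66, 5.48 and 5.22 FPKM, and Atf6 5.16, 1.69 and 2.21 FPKM. The highest members on this scale were Calr, Pdia3 and Hspa5, at 140.1, 114 and 88 FPKM in WT. In deposited FPKM, Eif2ak3, the kinase that phosphorylates eIF2 alpha, was at 2.66 and 2.79 FPKM in CKO, 2.82 and 3.002 FPKM in BTg, and 2.1 and 2.57 FPKM in WT. Both WT libraries lay below the other 4. Ern1 was at 0.827 and 0.864 FPKM in CKO, 0.481 and 0.727 FPKM in BTg, and 0.394 and 0.758 FPKM in WT, with both libraries labelled CKO above the overlapping BTg and WT values. Atf6 was at 0.731 and 0.423 FPKM in CKO, 0.177 and 0.202 FPKM in BTg, and 0.192 and 0.303 FPKM in WT, again highest in the libraries labelled CKO.

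The transcription factors differed from each other. Xbp1 (ENSMUSG00000020484, chromosome 11, 5520659 to 5525893, plus strand), the factor needed for the secretory state of plasma cells, was at 119.6 and 41.9 FPKM in CKO, 26.3 and 24.4 FPKM in BTg, and 24.2 and 32.1 FPKM in WT. Both libraries labelled CKO lay above the other 4, which overlapped. Atf4 was at 92.8 and 73.8 FPKM in CKO, 91 and 69 FPKM in BTg, and 65.7 and 75.9 FPKM in WT, so all 3 groups overlapped. Ddit3, which encodes the pro-apoptotic factor CHOP, was at 3.31 and 3.84 FPKM in CKO, 4.76 and 4.37 FPKM in BTg, and 4.88 and 4.39 FPKM in WT. It was lowest in the libraries labelled CKO, while BTg and WT overlapped. Another annotated gene of the same name, Gm4189 and Mars overlap its exons, and the strand setting of the counting is not given in the sources used here, so its value is uncertain.

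Of the 2 Atf4 targets, Trib3 and Asns stood apart in opposite ways. Trib3, a pseudokinase induced by Atf4 and CHOP, was at 3.06 and 5.2 FPKM in CKO, 7.19 and 6.79 FPKM in BTg, and 5.87 and 5.81 FPKM in WT. The groups did not overlap, with CKO lowest and BTg highest. Asns, the asparagine synthetase, was at 8.34 and 5.37 FPKM in CKO, 1.61 and 2.46 FPKM in BTg, and 2.04 and 7.22 FPKM in WT. Its WT values spanned nearly the whole range, and BTg lay below both libraries labelled CKO.

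All 11 chaperones and cofactors were highest in CKO 1. Hspa5 (ENSMUSG00000026864, chromosome 2, 34771970 to 34777547, plus strand) encodes BiP, the main Hsp70 of the endoplasmic reticulum, and was at 950.4 and 286 FPKM in CKO, 255 and 179.9 FPKM in BTg, and 282 and 245 FPKM in WT. CKO 1 was far above the other 5 libraries, and CKO 2 was close to WT 1. Hsp90b1, the Hsp90 of the same compartment, was at 201 and 58.4 FPKM in CKO, 45.2 and 40.7 FPKM in BTg, and 45.6 and 51.9 FPKM in WT. CKO 1 was again far above the rest and CKO 2 just above WT.

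Calreticulin and calnexin, the lectin chaperones that hold glycoproteins, are encoded by Calr and Canx. Calr was at 769.9 and 244 FPKM in CKO, 197 and 179.8 FPKM in BTg, and 184 and 250.1 FPKM in WT. Canx was at 169 and 84.9 FPKM in CKO, 67.7 and 70.4 FPKM in BTg, and 67.8 and 93.9 FPKM in WT. In both genes CKO 2 lay between the WT libraries.

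Sdf2l1, a partner of BiP complexes, was at 74.8 and 16.5 FPKM in CKO, 11.6 and 9.44 FPKM in BTg, and 10.04 and 12.5 FPKM in WT. Creld2, a secreted protein induced by endoplasmic reticulum stress, was at 25.6 and 6.56 FPKM in CKO, 4.6 and 4.24 FPKM in BTg, and 4.82 and 5.67 FPKM in WT. Manf, a secreted stress-induced factor, was at 142 and 34.6 FPKM in CKO, 36.1 and 28.1 FPKM in BTg, and 35.2 and 33.1 FPKM in WT. For Sdf2l1 and Creld2 both libraries labelled CKO lay above WT, while for Manf CKO 2 lay between the WT libraries.

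Hyou1, the exchange factor of BiP, was at 25.3 and 12 FPKM in CKO, 10.7 and 11.5 FPKM in BTg, and 8.14 and 11.6 FPKM in WT. The J-domain proteins stood out less in CKO 1. Dnajb9, Dnajb11 and Dnajc3 had 10.1, 12.2 and 7.34 FPKM in CKO 1 and between 4.27 and 8.13 FPKM in the other 5 libraries. Dnajb9 was at 10.1 and 6.36 FPKM in CKO, 8.13 and 5.24 FPKM in BTg, and 7.53 and 6.76 FPKM in WT, with CKO 2 below both WT libraries.

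The disulfide isomerases form and rearrange the bonds that fix secreted proteins in shape. Pdia6 (ENSMUSG00000020571, chromosome 12, 17266545 to 17284770, plus strand) was at 103 and 21.6 FPKM in CKO, 18.6 and 13.5 FPKM in BTg, and 20.8 and 19.3 FPKM in WT. P4hb was at 54.9 and 17.2 FPKM in CKO, 16.5 and 13.8 FPKM in BTg, and 15 and 16.9 FPKM in WT. Pdia4 was at 26.8 and 9.58 FPKM in CKO, 8.97 and 8.1 FPKM in BTg, and 7.78 and 8.28 FPKM in WT. In all 4 isomerases, Pdia3 included, both libraries labelled CKO lay above both WT libraries.

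The degradation genes lacked the excess of CKO 1, with Selenos as the exception. Herpud1, which organises the degradation complex in the membrane, was at 15.8 and 15.7 FPKM in CKO, 13 and 13.8 FPKM in BTg, and 10.7 and 12.5 FPKM in WT. Edem1, a lectin that extracts misfolded glycoproteins, was at 48.2 and 45.5 FPKM in CKO, 44.4 and 51.5 FPKM in BTg, and 30.5 and 38.5 FPKM in WT. For both genes the 2 WT libraries were the lowest of the 6 and the libraries labelled CKO were close to each other. Selenos was at 8.41 and 4.18 FPKM in CKO, 5.94 and 3.98 FPKM in BTg, and 5.87 and 3.86 FPKM in WT, higher in library 1 of each group.

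The subunits of translocation split by gene. Sec61a1, the pore of the channel, was at 55.2 and 47.5 FPKM in CKO, 39.8 and 40.7 FPKM in BTg, and 32.4 and 42.9 FPKM in WT. The small subunit Sec61g was at 24.7 and 7.55 FPKM in CKO, 9.2 and 6.05 FPKM in BTg, and 14.5 and 8.19 FPKM in WT, and Sec61b at 25.7 and 9.44 FPKM in CKO, 11.8 and 7.98 FPKM in BTg, and 12.7 and 9.7 FPKM in WT. For both small subunits CKO 2 was below both WT libraries. The translocon-associated protein (TRAP) subunits Ssr1 to Ssr4 summed to 155 and 61.2 FPKM in CKO, 63 and 48.7 FPKM in BTg, and 68.9 and 60.4 FPKM in WT. The signal peptidase subunits Spcs1 to Spcs3 summed to 144 and 68.3 FPKM in CKO, 78.8 and 53 FPKM in BTg, and 97.9 and 65.4 FPKM in WT. Within TRAP the ratio of CKO 1 to CKO 2 ran from 1.94 (1.85 to 2.04) for Ssr1 to 2.88 (2.73 to 3.05) for Ssr2, and within the signal peptidase from 1.83 (1.74 to 1.92) for Spcs3 to 2.25 (2.1 to 2.41) for Spcs1, with 95% counting intervals in parentheses. For both sums CKO 1 was the highest library and BTg 2 the lowest, and for the single subunits BTg 2 was the lowest except for Ssr1, lowest in WT 1.

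The 2 libraries labelled CKO differed from each other by 0.99 at the median of the members on the log2(FPKM + 1) scale, CKO 1 minus CKO 2, against -0.25 for all genes tested. With each library centred on its own median over all genes tested, the members' difference was 1.18. At least 2-fold higher in CKO 1 were 16 of 34 members, against 5.09% of all genes. The same median was 0.22 between the BTg libraries (all genes -0.10) and -0.11 between the WT libraries (all genes -0.20). With 1 library against 1 there is no test, and the intervals below cover counting error only.

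The ratio of FPKM in CKO 1 to CKO 2 varied within and between roles, with ranges that overlapped. It was highest for Pdia6 at 4.76 (4.58 to 4.96), Sdf2l1 at 4.54 (4.17 to 4.95) and Manf at 4.11 (3.89 to 4.33), with 95% counting intervals in parentheses. The chaperones had a median of 3.15 (1.45 to 4.54) and the disulfide isomerases 2.99 (2.03 to 4.76), followed by the translocon at 2.72, TRAP at 2.40 and the signal peptidase at 1.89. The transcription factors had a median of 1.26 (0.863 to 2.85), the Atf4 targets 1.07, degradation genes 1.06 (1.01 to 2.01) and the sensors 0.957 (0.95 to 1.73). These are medians of 2 to 11 genes, with ranges in parentheses, and roles were not tested against each other. The interval lay above 1 for 31 members, included 1 for Ern1, Eif2ak3, Herpud1 and Ddit3, and lay below 1 for Trib3 at 0.589 (0.498 to 0.694). Intervals were not made for all genes, so these counts do not set the members apart. Among members with a promoter found, the 7 with an ERSE had a median ratio of 3.32 (1.45 to 4.76) and the 23 without one 1.94 (0.589 to 4.54), ranges that overlap.

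**Figure D2:**
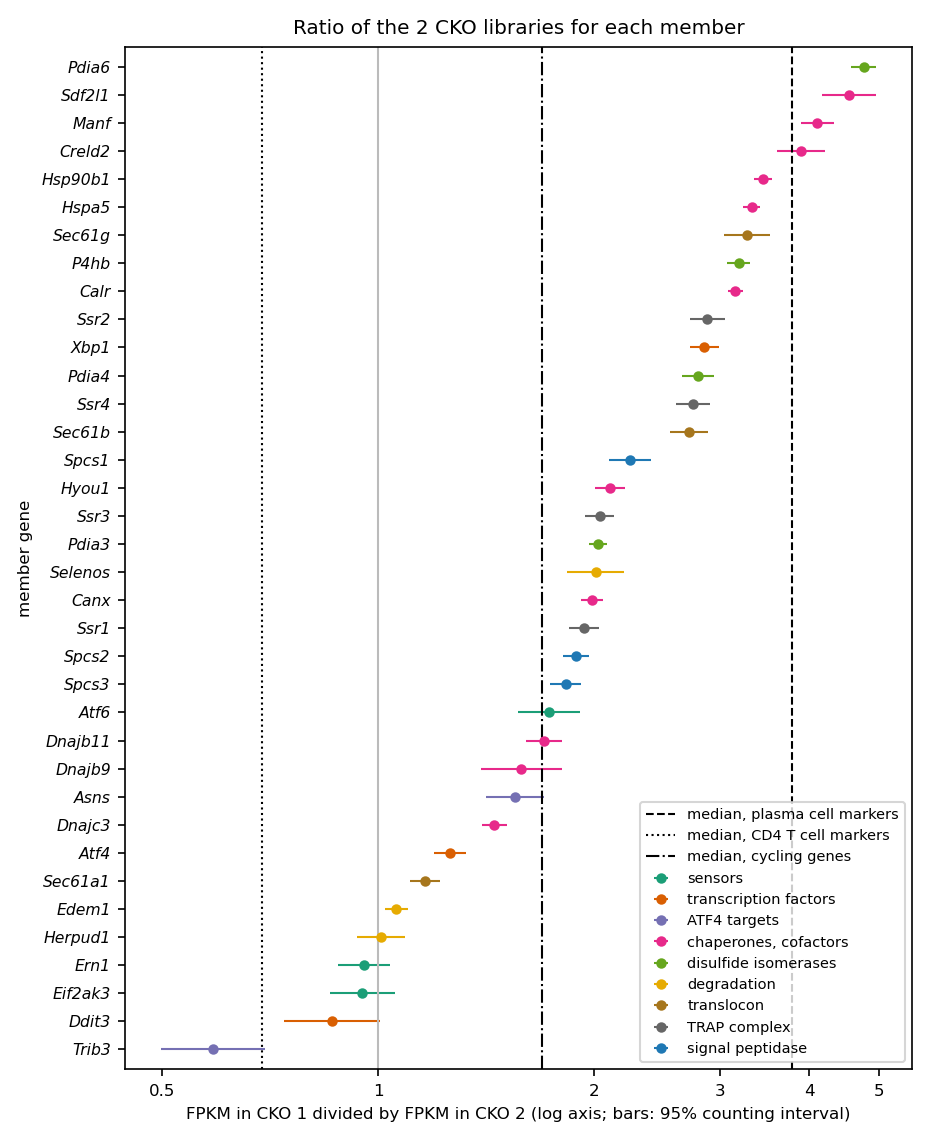
Each point is a member's FPKM in CKO 1 divided by that in CKO 2 on a log axis, with its 95% counting interval and its role in colour; vertical lines give the medians of 3 marker lists. Pdia6, Sdf2l1, Manf and Creld2 lie to the right of the plasma cell median of 3.79, and Trib3 at 0.589 lies left of the CD4 T cell median of 0.688.

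Plasma cell transcripts followed the same order of libraries at the top. The 12 plasma cell markers, which share no gene with the members, summed to 42548 and 9042 FPKM in CKO, 3812 and 2905 FPKM in BTg, and 3975 and 5481 FPKM in WT; 11 of the 12 were highest in CKO 1 and none was at 0 in every library. Of these markers Mzb1 and Derl3 themselves act in the endoplasmic reticulum. Jchain, the joining chain of polymeric antibody, was at 724 and 176 FPKM in CKO, 99.8 and 56.4 FPKM in BTg, and 125 and 109.7 FPKM in WT. Sdc1, the surface marker of plasma cells, was at 2.17 and 0.903 FPKM in CKO, 0.594 and 0.469 FPKM in BTg, and 0.58 and 0.851 FPKM in WT. Members and plasma cell markers both had CKO 1 highest, followed by CKO 2 and WT 2, with BTg 2 lowest.

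The sizes differed. CKO 1 over CKO 2 was 4.71 for the summed plasma cell markers and 2.71 for the members. CKO 2 over the WT mean was 1.91 for the markers and 1.09 for the members. Igkc alone made 35664 of the 42548 FPKM of the markers in CKO 1 and 7332 of the 9042 FPKM in CKO 2. Gene by gene, CKO 2 over the WT mean had a median of 2.39 for the markers and 1.09 for the members. The median marker was 3.79 times higher in CKO 1 than in CKO 2, and 4 of 36 members exceeded that. CKO 2 lay above both WT libraries for 11 of 12 plasma cell markers and for 17 of the 34 tested members, against 37.3% of all genes. It lay between the WT libraries for 11 members and below both for 6. Of all 10798 genes tested, it lay between them for 4758 and below both for 2008. In CKO 2 the summed plasma cell markers stood well above WT, and the summed members close to it.

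Transcripts of other cell types were high in CKO 1 as well. All 10 neutrophil markers were highest there, with summed levels of 7165 and 165 FPKM in CKO, 28.4 and 29.7 FPKM in BTg, and 47.8 and 129 FPKM in WT. Monocyte markers summed to 217 and 32.1 FPKM in CKO, 5.88 and 6.64 FPKM in BTg, and 6.16 and 21.3 FPKM in WT, all 8 highest in CKO 1. The 6 basophil and mast cell markers summed to 145 and 14.2 FPKM in CKO, 1.6 and 2.28 FPKM in BTg, and 2.04 and 7.71 FPKM in WT, with 5 highest in CKO 1. No gene of these lists was at 0 in every library.

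The 12 cycling genes summed to 381 and 221 FPKM in CKO, 60.9 and 89 FPKM in BTg, and 60.9 and 239 FPKM in WT, all highest in CKO 1. WT 2 had more of their summed transcript than CKO 2, and far more than WT 1, while its summed members were close to those of WT 1. B cell markers summed to 24.4 and 13.1 FPKM in CKO, 6.34 and 7.85 FPKM in BTg, and 6.73 and 12.1 FPKM in WT, with 3 of 10 highest in CKO 1. The 10 CD4 T cell markers summed to 1602 and 2065 FPKM in CKO, 3179 and 2454 FPKM in BTg, and 3055 and 1863 FPKM in WT, lowest in CKO 1. Erythroid markers summed to 363 and 616 FPKM in CKO, 93.3 and 161 FPKM in BTg, and 80.8 and 1002 FPKM in WT and dendritic cell markers to 1.81 and 3.1 FPKM in CKO, 0.488 and 1.13 FPKM in BTg, and 0.683 and 3.41 FPKM in WT, both highest in WT 2. The part of any of these lists in the members' levels was not tested.

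**Figure D3:**
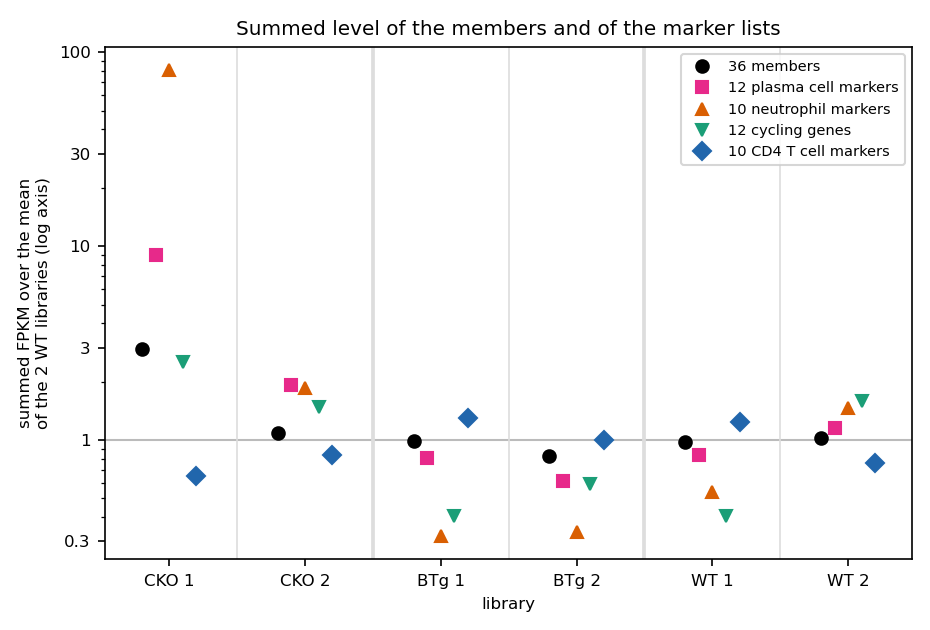
Points give the summed FPKM of each list in each library over the mean of the 2 WT libraries, on a log axis. In CKO 1 the members stand at 2.95, the plasma cell markers at 9 and the neutrophil markers at 80.8. In CKO 2 the members stand at 1.09 and the plasma cell markers at 1.91. Most of the plasma cell sum is Igkc.

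Between CKO and WT, the tested members were higher on average in the libraries labelled CKO, but none passed the test. The median log2 difference was 0.57, against -0.03 for all genes. The higher mean was in CKO for 32 of 34 members, against 4902 of all 10798 genes. The medians of the plasma cell and neutrophil markers tested were 2.50 and 3.77 in the same comparison. With a plasma cell score as covariate the members' median turned to -0.69, against 0.31 for all genes. Xbp1 was then at -0.50, Sdf2l1 at -1.03 and Creld2 at -0.999, and limma called 0 members. The slope of the score rests mainly on CKO 1 against CKO 2, so this fit cannot separate score from group. Without the covariate, limma called 0 members at an adjusted p under 0.05, and 0% of all genes. At an unadjusted p under 0.05 it gave 1 member, Xbp1, and 4.2% of all genes. Limma voom on recovered reads also called 0 (0% of all genes). At an unadjusted p under 0.05 it gave 3 of the 34, Xbp1, Sdf2l1 and Creld2, against 5.93% of all genes; voom has a lower filter and there also gave Atf6, which limma did not test. Both libraries labelled CKO exceeded both WT libraries in 17 members, against 11.5% of all genes, and lay below both in Ddit3 and Trib3, against 8.96%.

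Xbp1 averaged 80.8 ± 54.9 FPKM in CKO and 28.2 ± 5.57 FPKM in WT (SD, n = 2 each), a difference of 1.32 ± 0.51 (SE; limma, adjusted p = 1). Sdf2l1 differed by 1.58 ± 0.66, Creld2 by 1.19 ± 0.56, Pdia4 by 0.93 ± 0.46 and Hyou1 by 0.79 ± 0.39, each with an adjusted p of 1. On the lower side Trib3 differed by -0.45 ± 0.26 and Ddit3 by -0.30 ± 0.20, also with an adjusted p of 1. Permuting 4 libraries exactly gives no p below 0.333, so no such test was made for single genes.

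Without CKO 1 most of these differences were small. The members' median was then 0.12 (all genes 0.11), 24 of 34 members were higher and 10 lower, against 67.4% of all genes higher. Limma called 0 members (0% of all genes), with 0 at an unadjusted p under 0.05, against 2.33% of all genes. Xbp1 then differed by 0.57 ± 0.29, Sdf2l1 by 0.52 ± 0.26 and Creld2 by 0.28 ± 0.21, with adjusted p of 0.998 each. Pdia6 and Manf stood at 0.10 ± 0.29 and 0.02 ± 0.28. Herpud1 and Edem1, at 0.41 ± 0.23 and 0.40 ± 0.30, were close to their values with both libraries, 0.42 ± 0.23 and 0.44 ± 0.28. The 9 plasma cell markers tested still had a median of 1.43 without CKO 1, all 9 higher in CKO. Without CKO 2 instead, the members' median was 1.08 and limma called 2 members, Sdf2l1 and Creld2 (adjusted p = 0.0493 each), against 0.639% of all genes; CKO 1 alone is then assumed to vary like the other groups.

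**Figure D4:**
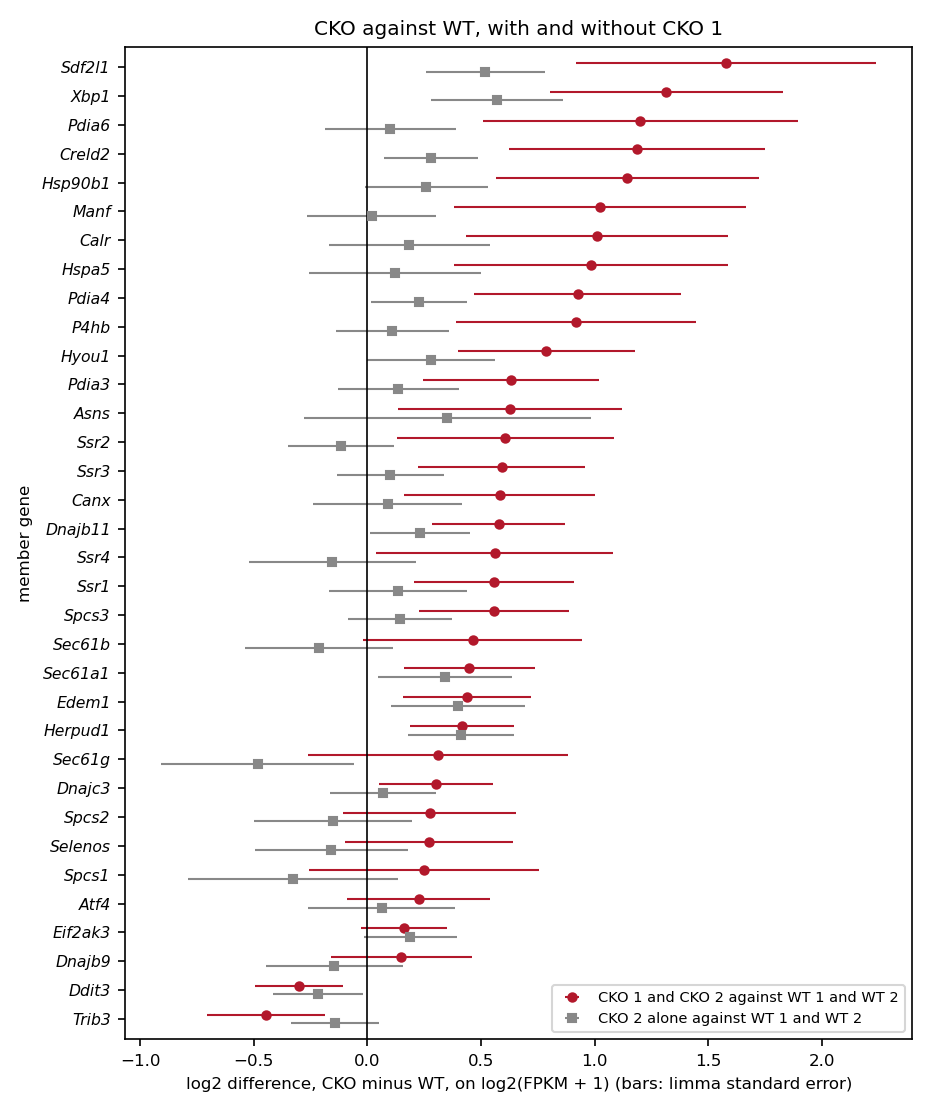
Points give each tested member's log2 difference between CKO and WT with its limma standard error, from all 6 libraries (red circles) and without CKO 1 (grey squares). Sdf2l1 stands at 1.58 with both libraries labelled CKO and at 0.52 with CKO 2 alone, while Herpud1 and Edem1 hardly move.

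Between BTg and WT, where Prdm1 itself was clearly higher in BTg, the members were close to WT. Their median log2 difference was -0.08, against 0.02 for all genes, with 10 members higher and 24 lower on average. Of all 10798 genes, 5885 were higher and 4913 lower. Limma called 0 members, against 0.0185% of all genes, and gave 0 at an unadjusted p under 0.05, against 1.62%; voom also called 0 (0.0251% of all genes), with 0 at an unadjusted p under 0.05 (1.42%). Both BTg libraries exceeded both WT libraries in 5 members (14.7% of all genes) and lay below both in 5 (10.4%).

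The 5 higher members were the degradation genes Edem1 at 0.47 ± 0.28 and Herpud1 at 0.20 ± 0.23, Eif2ak3 at 0.23 ± 0.19, Trib3 at 0.22 ± 0.26 and Dnajb11 at 0.15 ± 0.29. The 5 lower members were Ssr2 at -0.33 ± 0.48, Spcs3 at -0.22 ± 0.33, Pdia6 at -0.32 ± 0.69, Creld2 at -0.20 ± 0.56 and Hsp90b1 at -0.18 ± 0.58. All 10 had a limma adjusted p of 1. The 3 groups share 1 estimate of the spread, so these errors also hold the gap between CKO 1 and CKO 2. Without CKO 1 the differences were the same and the errors smaller. They were then 0.19 for Ssr2, 0.19 for Spcs3, 0.24 for Pdia6, 0.17 for Creld2 and 0.22 for Hsp90b1. Edem1 averaged 48 ± 5.03 FPKM in BTg and 34.5 ± 5.65 FPKM in WT (SD, n = 2 each). The sign of the median rested on BTg 2: without it the median was 0.06, and without BTg 1 it was -0.21. Plasma cell markers were lower in BTg for 8 of 9 tested, with a median of -0.63. With the plasma cell score as covariate the members' median was 0.19, against -0.03 for all genes. The slope of the score again rests mainly on CKO 1 against CKO 2.

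Between BTg and CKO, the members were lower in BTg, at a median of -0.67 against 0.06 for all genes. The lower mean was in BTg for 30 of 34 members, against 4745 of all 10798 genes. The medians of the plasma cell and neutrophil markers tested were -2.41 and -4.59. With a plasma cell score as covariate the members' median turned to 0.83, against -0.33 for all genes. Xbp1 was then at 0.72, Sdf2l1 at 1.44 and Creld2 at 1.22, and limma called 0 members. The slope of the score rests mainly on CKO 1 against CKO 2, so this fit cannot separate score from group either. Without the covariate, limma called 0 members (0.0185% of all genes). At an unadjusted p under 0.05 it gave 4 lower and 1 higher, against 8.79% of all genes. Limma voom called 0 (0.044%). At an unadjusted p under 0.05 it gave 9 of the 34 lower and 1 higher, against 12.8% of all genes, beside Atf6, lower. Both BTg libraries lay below both libraries labelled CKO in 20 members, against 21.8% of all genes, and above both in 3, against 17.8%. This comparison shares its libraries with the other 2, so the 3 sets of values are not independent.

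Sdf2l1 averaged 10.5 ± 1.5 FPKM in BTg and 45.6 ± 41.2 FPKM in CKO (SD, n = 2 each), a difference of -1.67 ± 0.66 (SE; limma, adjusted p = 0.56). Xbp1 differed by -1.45 ± 0.51 (adjusted p = 0.512), Creld2 by -1.39 ± 0.56 (adjusted p = 0.568), Asns by -1.36 ± 0.49 (adjusted p = 0.521) and Spcs3 by -0.78 ± 0.33 (adjusted p = 0.585). Of the 3 higher members, Trib3 differed by 0.67 ± 0.26 (adjusted p = 0.548), Ddit3 by 0.28 ± 0.20 and Eif2ak3 by 0.07 ± 0.19. Without CKO 1 the median was -0.15 (all genes -0.05), and Xbp1 stood at -0.70 ± 0.29 with a limma adjusted p of 0.999. Without CKO 2 it was -1.19, and limma called 6 members, Creld2, Sdf2l1, Pdia6, Hsp90b1, Xbp1 and Manf, all lower in BTg, against 2.27% of all genes.

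Pathway genes outside the members were described in 6 further lists, none of whose genes passed the limma test in any comparison. At an unadjusted p under 0.05 it gave 3 folding genes, 1 gene of the Atf4 branch and Bhlha15, all higher in CKO than in WT. It gave 0 in the remaining lists. Between BTg and CKO it gave 4 folding genes, 2 of the Atf4 branch and 1 of transport, all lower in BTg, and between BTg and WT 0. Limma voom also called 0 in every list. In the list of other folding factors 17 of 18 tested genes had the higher mean in CKO than in WT, with a median of 0.32. Of all 10798 genes, 4902 had the higher mean in CKO. Fkbp11, a prolyl isomerase of secretory tissue, was at 8.32 and 1.19 FPKM in CKO, 0.45 and 0.512 FPKM in BTg, and 0.445 and 0.554 FPKM in WT. Selenom was at 5.65 and 1.23 FPKM in CKO, 0.554 and 0.377 FPKM in BTg, and 0.611 and 0.607 FPKM in WT. Txndc5, another disulfide isomerase, was at 14.5 and 6.37 FPKM in CKO, 3.89 and 3.91 FPKM in BTg, and 3.19 and 5.09 FPKM in WT. CKO 1 was far above the rest for all 3, and CKO 2 above both WT libraries. They had the smallest p of that list, at differences of 1.59 ± 0.64, 1.26 ± 0.50 and 1.08 ± 0.40 between CKO and WT, and of -1.61 ± 0.64, -1.40 ± 0.50 and -1.13 ± 0.40 between BTg and CKO.

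Between CKO and WT the 18 further degradation genes tested had a median of 0.14, with Sel1l, Edem2 and Vcp at 0.54 ± 0.27, 0.50 ± 0.28 and 0.51 ± 0.32. The 20 translocation and glycosylation genes had a median of 0.19, with Rpn2, Sec11c and Ddost at 0.60 ± 0.33, 0.60 ± 0.33 and 0.57 ± 0.37. The 23 genes of transport to the Golgi had 0.26, with Sec24d, Kdelr2 and Lman1 at 0.69 ± 0.31, 0.60 ± 0.30 and 0.66 ± 0.34. The 16 other genes of the Atf4 branch had a median of 0.35, with Cebpb, Psat1 and Eif2ak2 at 1.77 ± 0.62, 0.89 ± 0.38 and 0.67 ± 0.31. The transcription factor Cebpb stood at 32.3 and 7.61 FPKM in CKO, 8.06 and 5.07 FPKM in BTg, and 3.78 and 4.14 FPKM in WT. Ddit4, a stress-induced inhibitor of mTORC1, was at 74.7 and 272 FPKM in CKO, 98.5 and 134 FPKM in BTg, and 239.8 and 211 FPKM in WT, lowest in CKO 1 and highest in CKO 2. In the list of membrane-bound factors, their partners and Bhlha15, 4 genes were tested, with a median of -0.03. Bhlha15, which drives secretory architecture, was at 2.91 and 1.41 FPKM in CKO, 0.915 and 0.788 FPKM in BTg, and 0.609 and 1.04 FPKM in WT. Its difference was 0.76 ± 0.30 between CKO and WT (limma, adjusted p = 1). Between BTg and CKO, Eif2ak2 at -1.02 ± 0.31, Lman1 at -0.84 ± 0.34, Sec11c at -0.82 ± 0.33 and Sel1l at -0.48 ± 0.27 had among the smallest p of their lists, all lower in BTg on average. Between BTg and WT the medians of the 6 lists lay between -0.10 and 0.05.

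A pattern by library number ran across the groups. In 13 of 34 members library 1 was above library 2 in all 3 groups, against 14.9% of all genes; these were Hspa5, Dnajb9, Dnajc3, Manf, Pdia6, Selenos, Sec61b, Sec61g, Ssr2, Ssr4 and Spcs1 to Spcs3. Spcs1 was at 101 and 44.9 FPKM in CKO, 55.4 and 34.8 FPKM in BTg, and 72.3 and 44.2 FPKM in WT. Of the 34, only Eif2ak3 had library 2 above library 1 in all 3 groups, against 45.7% of all genes, and the untested Ern1 had the same order. Exon length did not separate these 13 members from the other 21, with medians of 3096 and 3139 bases, although over all genes the 1613 with that pattern had a median of 2101 bases against 3895 for the rest. The labels do not say what the number stands for.

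In 12 members an exon overlaps another annotated gene (Eif2ak3, Ddit3, Hsp90b1, Dnajb9, Manf, Pdia3, Pdia4, Pdia6, Sec61a1, Ssr2, Spcs1 and Spcs3), so reads could be split or shared there. The highest ratio of CKO 1 to CKO 2 among the 24 members without such an overlap was that of Sdf2l1, at 4.54.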

How the data were processed

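RNA was sequenced from 6 libraries of sorted CD4 T cells, 2 per group, with BTg numbers taken from the bracketed names in the titles; RNA was extracted with TRIzol and libraries were made with NEBNext Ultra reagents, per the labels' protocols. Trimmomatic 0.38, HISAT2 2.1.0, featureCounts 1.6.0 and the build GRCm38 are named in the submitters' processing notes; settings, strand use and annotation release are not given there. The deposited values are FPKM per gene, made by the authors from reads counted per gene. Multiplied back by a median transcript span they gave whole reads for 100% of values within 0.01, totalling 14958458 to 17799091 per library. The length used was thus a span that includes introns, 3.07 times the merged exon length at the median protein-coding gene, so levels are compared between genes only per exon length, and sums of deposited FPKM, which weight short-span genes, are used to compare libraries.

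Genes were matched by Ensembl identifier to GENCODE M21. Genes at 1 FPKM or more in at least 2 libraries (10798) were tested on log2(FPKM + 1) with limma 3.58.1 (R 4.3.3), all 3 groups in 1 model with a mean-variance trend and Benjamini-Hochberg adjustment over all 10798. Counting intervals are exact 95% intervals on recovered reads and cover counting error only. Alternatives were other pseudocounts, filters and scalings, exon length, no trend, 2 groups only, limma voom on recovered reads, each library left out, a replicate block and a plasma cell score as covariate. The main limma fit was tested on simulated data for CKO against WT, with a spread taken from the WT libraries. Those data held no gap like that between CKO 1 and CKO 2. The simulation did not cover voom, the plasma cell score, the replicate block or the counting intervals. Fit values are given for members past the threshold and otherwise, per comparison and direction, for the up to 5 of smallest p whose libraries do not overlap between groups, and per pathway list for up to 3 of smallest p. Ddit4, and Herpud1, Edem1, Pdia6 and Manf in the fits of CKO against WT, were picked once values were known. The members and lists were chosen with earlier results of these data known. Promoters are RefSeq sequences of GRCm38.p6. Figures were drawn with matplotlib 3.10.9 in Python 3.11.15.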

Additional observations from a re-analysis of the deposited data

How the results depend on the processing

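With 2 libraries per group, 1 library can decide a call. Leaving out 1 library at a time, limma called 0 to 2 members between CKO and WT, 0 between BTg and WT and 0 to 6 between BTg and CKO. The members' median ranged over 0.115 to 1.08, -0.213 to 0.0641 and -1.19 to -0.149 in the same comparisons. Without BTg 2 the median between BTg and WT thus turned positive, without WT 2 it was -0.0155, and 5 results of single named members passed the threshold without CKO 2. With a plasma cell score as covariate the medians reversed. They were then -0.686 between CKO and WT, 0.187 between BTg and WT and 0.834 between BTg and CKO. The score differed between the groups and its slope rests mainly on CKO 1 against CKO 2, so these fits cannot separate score from group. The cause was not tested. Between CKO and WT the fit with the score gave Xbp1 -0.504, Sdf2l1 -1.03, Creld2 -0.999, Pdia4 -0.769, Hyou1 -0.411 and Trib3 0.25. Between BTg and WT it gave Ssr2 0.021, Pdia6 0.211, Creld2 0.222 and Hsp90b1 0.24. Between BTg and CKO it gave Trib3 -0.162, Eif2ak3 -0.0144, Xbp1 0.723, Sdf2l1 1.44, Creld2 1.22 and Spcs3 0.471. With the library number as a replicate block limma called 0 members, and the medians were 0.57, -0.08 and -0.67. Every group holds both numbers, so the block cannot change these medians, only the errors. Deviations of same-numbered libraries correlated at 0.173 for CKO and WT, 0.469 for BTg and WT and 0.456 for BTg and CKO. Only 2 numbers exist, and the labels do not give their meaning. Centring each library on its median made 23 members at least 2-fold higher in CKO 1 than in CKO 2, against 16 without it. The share of all genes after centring is not given here. Other pseudocounts, filters and scalings, exon length, no trend, 2 groups only and voom called 0 members.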
